A study of Homo sapiens with 16 samples.

Results

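The 50 genes described here drive the cell through DNA replication and mitosis. They were taken by symbol from a fixed list of cell cycle and DNA replication genes, and all 50 were present among the 23575 gene symbols of the count table. Of these, 23 act at the start of S phase or in DNA replication and 27 act in G2 and mitosis. RNA was sequenced from HL-60, an established human promyelocytic leukaemia line of wild type genotype per the labels. Differentiated, neutrophil-like cells (dHL-60) were given Staphylococcus aureus lipoteichoic acid (LTA) at 1 or 10 µg/ml or left untreated, for 4 or 24 h, with 2 libraries in each of 6 groups. Undifferentiated cells (uHL-60) were given 1 µg/ml LTA or left untreated for 4 or 24 h, with 1 library in each of 4 groups. All groups come from 1 leukaemia line, and what was used to differentiate it is not stated in the labels.

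Cells enter S phase when cyclin E with its kinase releases E2F transcription factors from the retinoblastoma protein, and E2F then drives genes for origin licensing, the replication fork and nucleotide supply. Later, MYBL2 (B-MYB) and FOXM1 act with the MuvB complex on promoters of mitotic genes, many of which carry a short element called the CHR beside CCAAT boxes bound by NF-Y. Immature myeloid cells divide, whereas granulocytes leave the cycle as they mature. In cells that leave the cycle, such genes can be repressed through the DREAM and retinoblastoma complexes, which were not measured here. LTA is a glycolipid of the Gram-positive cell wall that is sensed through TLR2.

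The 16 libraries held 9653374 to 20157081 counts. Whether the 2 libraries of a dHL-60 pair stem from separate cultures is not stated, so p-values rest on the spread between these libraries, which may be technical only. Both libraries of each pair were kept, since their counts differed beyond sampling noise (chi-square over degrees of freedom of 10.3 to 18.9). The phagocyte integrin subunit ITGAM stood at 64.8 to 259 CPM (counts scaled to library size) in dHL-60 and 1.13 to 2.09 CPM in uHL-60. CD14, another phagocyte gene, stood at 137 to 1389 CPM in dHL-60 and 0.185 to 1.48 CPM in uHL-60. The promyelocyte granule enzymes MPO and ELANE differed in direction. MPO stood at 4277 to 18306 CPM in dHL-60 and 20235 to 22524 CPM in uHL-60. ELANE stood at 301 to 1756 CPM in dHL-60 and 688 to 835 CPM in uHL-60. In untreated dHL-60 against untreated uHL-60 the log2 fold change was -1.01 for MPO and 0.67 for ELANE. Of 13 macrophage markers, CD163, MRC1, MARCO, MSR1, CD68, C1QB, C1QC and APOE stayed at or under 0.93 CPM in every dHL-60 library, whereas C1QA reached 6.67, MERTK 4.59, GPNMB 12.6, VSIG4 20 and CSF1R 139 CPM. The exons of 8 members overlap another gene over more than 10% of their length, and reads there may be shared: RRM2, BUB1B and NUSAP1 on the same strand, and CCNE2, MCM2, TYMS, FOXM1 and PLK1 on the other strand. Values of these 8 genes are uncertain in that respect, most of all those of NUSAP1, a spindle microtubule protein with 62.2% of its exon bases shared. NUSAP1 had 4 to 17 counts in each dHL-60 library and 2717 to 3493 counts in each uHL-60 library. The annotated overlap is the same for all libraries, and the cause of this gap was not tested.

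Promoter motifs differed in frequency between the phases. RefSeq promoters on GRCh38.p14, from 250 bases before to 50 bases after a given start, were matched for 41 of the 50 genes by symbol. For CDC45, RRM2 and AURKB that start lies inside the annotated gene. The genes without an entry were CCNE2, MCM4, MCM5, FOXM1, AURKA, BIRC5, TTK, UBE2C and TPX2. On either strand, 3 motifs were searched, namely the CHR (TTTGAA or TTTAAA, the second of which reads the same on both strands), the CCAAT box (CCAAT, or ATTGG on the other strand) and the E2F site (TTTCCCGC or TTTGGCGC). A CHR was present in 16 of 21 G2 and mitosis promoters (76.2%) and in 4 of 20 G1/S and replication promoters, beside 24.0% of all 35116 promoters in the table. An E2F site was present in 2 of 21 G2 and mitosis promoters, those of CENPA and NUSAP1, and in 12 of 20 G1/S and replication promoters, beside 2.27% of all promoters. A CHR together with a CCAAT box was found in 14 of 21 and 2 of 20, beside 9.27% of all promoters. The CCAAT box alone was present in 17 of 21 G2 and mitosis promoters and 12 of 20 G1/S and replication promoters, beside 34.6% of all.

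The promoters printed here belong to the genes on which the expression results turn. CDC45, MCM6, BUB1B and TOP2A have the largest differences between dHL-60 and uHL-60 in their phase, with NUSAP1 set aside, and E2F2, TK1, KIF20A and MKI67 were chosen after their response to LTA was seen. Capitals mark the 3 motifs on either strand, and each sequence runs 5′ to 3′ along the gene's own strand. The positions on GRCh38.p14 are chr22:19479670-19479969, plus strand for CDC45, chr2:135876394-135876693, minus strand for MCM6, chr15:40160819-40161118, plus strand for BUB1B and chr17:40417847-40418146, minus strand for TOP2A. Those of the responders are chr1:23531184-23531483, minus strand for E2F2, chr17:78187155-78187454, minus strand for TK1, chr5:138178862-138179161, plus strand for KIF20A and chr10:128126374-128126673, minus strand for MKI67.
CDC45: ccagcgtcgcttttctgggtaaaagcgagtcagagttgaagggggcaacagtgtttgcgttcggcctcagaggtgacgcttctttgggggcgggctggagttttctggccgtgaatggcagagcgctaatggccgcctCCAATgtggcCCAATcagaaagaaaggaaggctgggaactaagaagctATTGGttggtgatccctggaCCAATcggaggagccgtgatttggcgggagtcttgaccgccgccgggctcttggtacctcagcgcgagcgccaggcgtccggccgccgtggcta
MCM6: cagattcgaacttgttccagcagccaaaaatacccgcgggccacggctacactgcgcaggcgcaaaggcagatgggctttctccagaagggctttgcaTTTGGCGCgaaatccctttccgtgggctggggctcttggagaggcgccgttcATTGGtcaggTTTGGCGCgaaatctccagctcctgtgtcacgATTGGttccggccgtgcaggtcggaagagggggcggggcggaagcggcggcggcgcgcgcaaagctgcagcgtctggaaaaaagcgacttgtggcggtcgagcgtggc
BUB1B: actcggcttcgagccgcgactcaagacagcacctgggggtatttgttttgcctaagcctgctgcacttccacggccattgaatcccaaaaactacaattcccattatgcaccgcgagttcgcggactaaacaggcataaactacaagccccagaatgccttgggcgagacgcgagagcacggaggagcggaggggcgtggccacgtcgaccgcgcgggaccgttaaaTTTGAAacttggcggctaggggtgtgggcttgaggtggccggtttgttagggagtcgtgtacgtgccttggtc
TOP2A: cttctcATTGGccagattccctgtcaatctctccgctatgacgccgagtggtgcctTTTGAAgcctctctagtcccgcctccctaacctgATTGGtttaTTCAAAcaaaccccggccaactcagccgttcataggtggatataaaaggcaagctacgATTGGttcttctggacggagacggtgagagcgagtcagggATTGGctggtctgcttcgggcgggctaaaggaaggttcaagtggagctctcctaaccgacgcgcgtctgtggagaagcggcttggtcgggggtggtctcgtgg
E2F2: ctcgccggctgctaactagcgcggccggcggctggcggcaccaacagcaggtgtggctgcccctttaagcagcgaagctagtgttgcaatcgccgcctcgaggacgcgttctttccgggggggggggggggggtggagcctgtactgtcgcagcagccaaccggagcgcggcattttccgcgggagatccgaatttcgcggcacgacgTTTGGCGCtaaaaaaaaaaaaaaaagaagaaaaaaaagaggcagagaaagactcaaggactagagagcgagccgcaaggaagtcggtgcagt
TK1: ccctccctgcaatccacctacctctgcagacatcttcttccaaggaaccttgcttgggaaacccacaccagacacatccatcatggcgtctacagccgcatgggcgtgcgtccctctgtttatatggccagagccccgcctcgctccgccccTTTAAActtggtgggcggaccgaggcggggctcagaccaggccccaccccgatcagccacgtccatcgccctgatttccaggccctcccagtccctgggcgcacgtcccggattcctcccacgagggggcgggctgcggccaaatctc
KIF20A: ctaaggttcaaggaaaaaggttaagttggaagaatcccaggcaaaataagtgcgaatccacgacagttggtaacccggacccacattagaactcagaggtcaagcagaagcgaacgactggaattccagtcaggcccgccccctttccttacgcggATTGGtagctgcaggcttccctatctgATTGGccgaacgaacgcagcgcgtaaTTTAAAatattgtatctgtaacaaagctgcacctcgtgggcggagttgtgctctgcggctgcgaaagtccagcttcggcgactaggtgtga
MKI67: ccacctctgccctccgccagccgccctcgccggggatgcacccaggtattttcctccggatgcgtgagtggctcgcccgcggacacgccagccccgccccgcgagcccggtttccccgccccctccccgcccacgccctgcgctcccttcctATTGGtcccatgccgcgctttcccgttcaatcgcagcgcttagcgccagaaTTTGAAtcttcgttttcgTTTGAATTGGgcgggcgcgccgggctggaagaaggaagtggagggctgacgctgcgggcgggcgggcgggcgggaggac
The MCM6 promoter holds 2 E2F sites and 2 CCAAT boxes, and the E2F2 promoter 1 E2F site. The mitotic promoters of TOP2A and MKI67 hold 2 CHR elements each, and in MKI67 the second CHR and a CCAAT box overlap by 1 base. TK1, which acts in nucleotide supply, holds a CHR and neither of the other motifs. The CDC45 promoter holds 4 CCAAT boxes and neither of the other motifs. A match of letters is a description and does not show that a factor binds there.

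Nearly the whole set was lower in differentiated cells. Untreated dHL-60 was compared with untreated uHL-60 in a fit of 6 libraries that holds time as an added factor, by edgeR's quasi-likelihood test with Benjamini-Hochberg adjustment over all genes tested, and a gene is called at an adjusted p under 0.05. All 50 genes passed the filter on low counts, 49 were called lower and 0 higher. DESeq2 called the same numbers, and 0 genes were higher at an unadjusted p under 0.05. Of all 11884 genes tested, 28.3% were called lower and 29.7% higher. The median log2 fold change was -1.82 over the 50 genes and 0.01 over all genes tested, with -1.44 for G1/S and replication and -2.02 for G2 and mitosis. For all 49 called genes the 4 dHL-60 libraries lay below both uHL-60 libraries, an order found for 33.6% of all genes, with the reverse order in 37.4%. In bulk RNA, fewer cycling cells and less of these RNAs per cell cannot be told apart, and differentiation cannot be told apart from any batch that the uHL-60 libraries share.

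Among G1/S and replication genes the fork and origin factors CDC45, MCM6 and POLA1 had the largest decreases. CDC45, which with MCM and GINS forms the replicative helicase, had 14.3 and 14.8 CPM at 4 h and 21.5 and 25.5 CPM at 24 h in untreated dHL-60, against 118 and 115 CPM in untreated uHL-60. It fell by 2.71 ± 0.21 on the log2 scale, with an adjusted p of 1.59e-05 by edgeR. MCM6, a subunit of the MCM ring that is loaded at origins, had 60.4 and 69.8 CPM at 4 h and 92.7 and 85.1 CPM at 24 h in untreated dHL-60, against 389 and 399 CPM in untreated uHL-60. Both genes were far below uHL-60 in each of the 4 dHL-60 libraries. POLA1, the catalytic subunit of the primase-polymerase, fell by 2.22 ± 0.23, and the nucleotide synthesis enzymes TYMS and RRM1 by 1.94 and 1.82. The remaining MCM subunits fell by 1.10 for MCM7 to 1.90 for MCM5. The origin loading factors CDC6 and CDT1 fell by 1.79 and 1.11, the cyclin CCNE1 by 1.14, and CDC25A, the phosphatase that frees CDK2, by 1.81. The smallest called decreases in the set were those of E2F1, which opens S phase, by 0.75 ± 0.18, and FEN1, which trims Okazaki fragments, by 1.00 ± 0.16.

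E2F2, another activating E2F, was the 1 gene not called. It had 27.6 and 25.9 CPM at 4 h and 7.3 and 7.35 CPM at 24 h in untreated dHL-60, against 17.6 and 21.1 CPM in untreated uHL-60. The dHL-60 libraries of 4 h lay above both uHL-60 libraries and those of 24 h below them. Its log2 fold change over both times was -0.60 ± 0.40, with an adjusted p of 0.225 by edgeR and an interval from -1.52 to 0.31.

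Among mitotic genes BUB1B and TOP2A had the largest differences beside NUSAP1. TOP2A, the topoisomerase that untangles sister chromatids, had 84.8 and 105 CPM at 4 h and 81.4 and 88.9 CPM at 24 h in untreated dHL-60, against 599 and 593 CPM in untreated uHL-60. BUB1B, the checkpoint kinase BUBR1, had 21.4 and 28.3 CPM at 4 h and 25.6 and 22.9 CPM at 24 h in untreated dHL-60, against 195 and 181 CPM in untreated uHL-60. TOP2A fell by 2.77 ± 0.17 and BUB1B by 2.98 ± 0.18, with adjusted p of 4.76e-06 and 3.97e-06 by edgeR. The transcription factor MYBL2 fell by 2.57 ± 0.17, the mitotic kinase CDK1 by 2.36 ± 0.20, and MKI67, the Ki-67 protein that coats mitotic chromosomes, by 2.21 ± 0.26. AURKB, the kinase of the chromosomal passenger complex, had the smallest decrease of the 27, 1.02 ± 0.22.

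**Figure D1:**
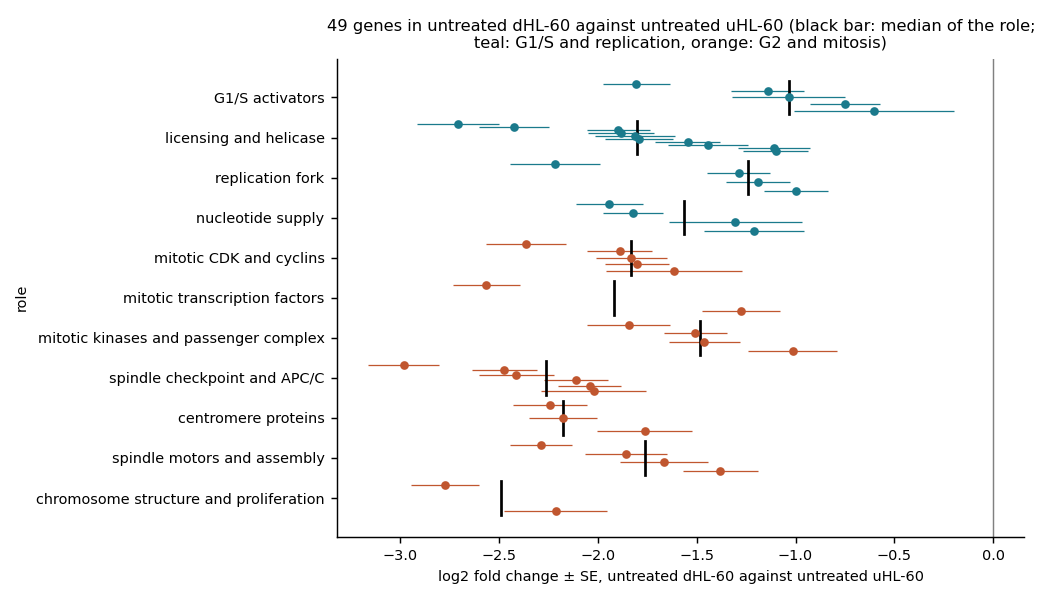
Log2 fold change ± SE of untreated dHL-60 against untreated uHL-60 (x axis) for 49 genes grouped by role (y axis), with the median of each role as a black bar. All values lie below 0, from -0.60 for E2F2 to -2.98 for BUB1B. NUSAP1, at -7.73, is left out, as most of its exon bases are shared and the cause of its gap was not tested.

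Levels between genes were compared only per exon length. In untreated uHL-60 the sliding clamp PCNA was the highest of the 50 genes, at 219 CPM per kb, followed by TYMS at 162 and MCM7 at 150 CPM per kb. PCNA was also the highest in untreated dHL-60, at 99.5 CPM per kb, with MCM7 at 72.1 and TYMS at 44.6 CPM per kb. The phosphatase CDC25C, which switches on CDK1, was among the lowest, at 0.749 CPM per kb in untreated dHL-60 and 2.02 CPM per kb in untreated uHL-60.

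As a set, the genes stayed below the level of uHL-60 in every dHL-60 group. Over the 49 genes without NUSAP1, the median level relative to untreated uHL-60 was 32.6% in untreated dHL-60 at 4 h, 37.7% with 1 µg/ml and 38.9% with 10 µg/ml LTA. At 24 h it was 27% in untreated dHL-60, 40.1% with 1 µg/ml and 45.7% with 10 µg/ml LTA. G2 and mitosis genes moved more over these groups than G1/S and replication genes did. At 24 h their median was 22.1% in untreated cells, 39.3% with 1 µg/ml and 44.9% with 10 µg/ml LTA, and that of G1/S and replication genes 34.3%, 42.7% and 45.7%. These percentages are descriptions and were not tested.

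**Figure D2:**
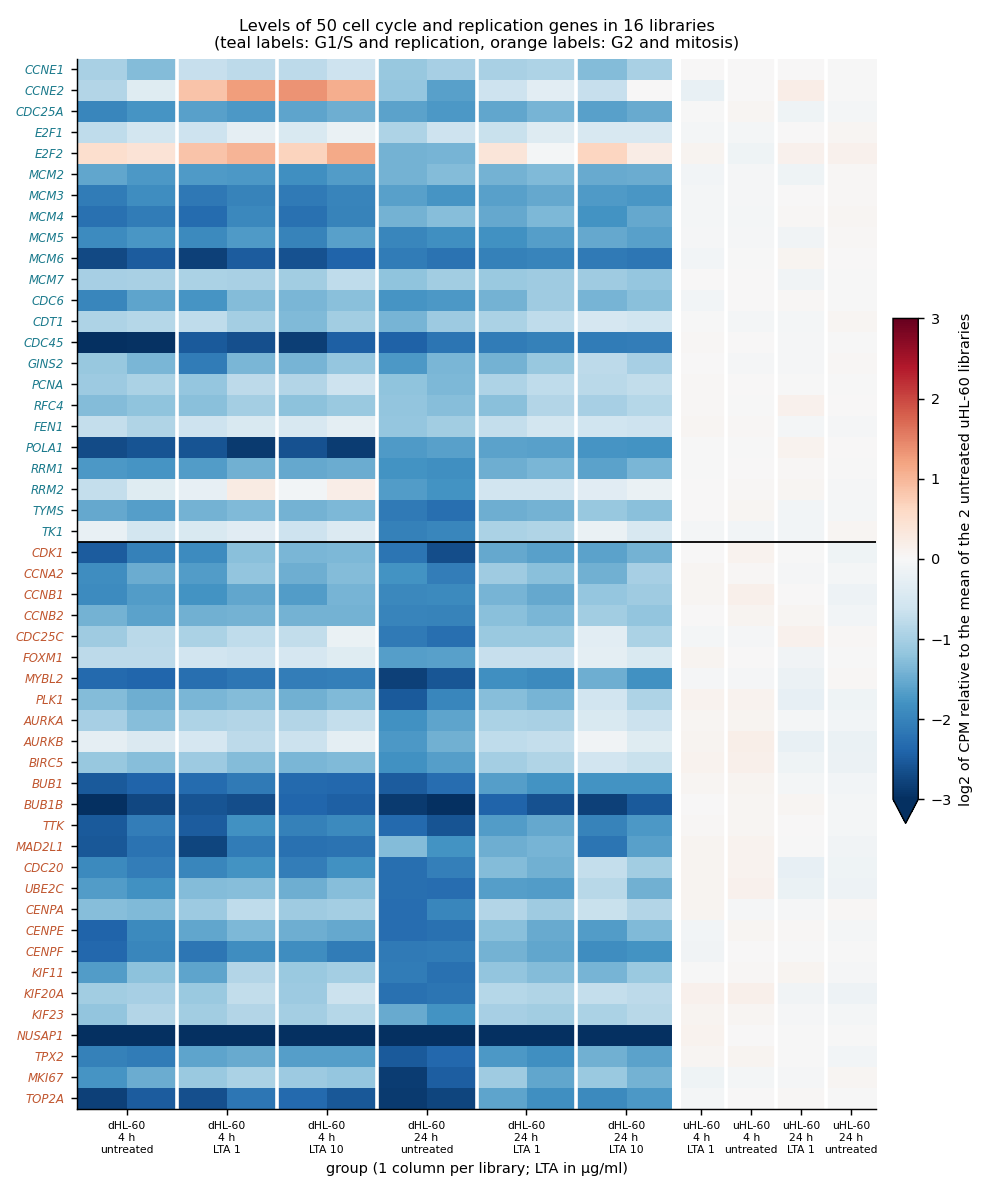
Level of each of the 50 genes (rows, by role) in each of the 16 libraries (columns) as log2 CPM relative to the mean of the 2 untreated uHL-60 libraries. The dHL-60 libraries lie below uHL-60 in nearly all rows, and E2F2, CCNE2 and RRM2 are the rows with dHL-60 values above the untreated uHL-60 mean.

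Between 4 and 24 h without LTA more of the genes fell than rose. Of the 50 genes, 19 were called lower at 24 h and 5 higher. Of all 11866 genes tested 23.1% were called lower and 17.8% higher. The share of the 50 genes called higher was thus below that of all genes. The median log2 fold change was -0.25 over the 50 genes and -0.04 over all genes. Both 24 h libraries lay below both 4 h libraries for 27 of the 50 genes and above them for 8, beside 37.3% and 31.8% of all genes. Without the library of replicate 1 at 24 h, 15 genes were called, and without the 8 genes with shared exons 14 were called lower and 5 higher. TK1, the thymidine kinase that salvages nucleotides for S phase, had 18.1 and 19.1 CPM at 24 h, against 64.2 and 50.8 CPM at 4 h. It fell by 1.62 ± 0.16, with an adjusted p of 5.77e-06 by edgeR, and both 24 h libraries lay far below both at 4 h. E2F2 fell by 1.86 ± 0.21, and RRM2, the regulated subunit of ribonucleotide reductase, by 1.21 ± 0.18.

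Of the 27 mitotic genes 14 fell and 1 rose over the same time. AURKB fell by 1.23 ± 0.18, CDC25C by 1.23 ± 0.32, and the cytokinesis motor KIF20A by 1.19 ± 0.18. MKI67 fell by 1.03 ± 0.19 and FOXM1 by 0.86 ± 0.13. All 4 kinase and passenger complex genes, PLK1, AURKA, AURKB and BIRC5, were among the 14.

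The 5 genes that rose, a share below that of all genes, were POLA1, MCM4, MCM6, CDC45 and the checkpoint protein MAD2L1. The MAD2L1 pair at 24 h was wide, with 50.65 and 35.7 CPM, against 21.3 and 26.7 CPM at 4 h. POLA1 had 24.6 and 25.8 CPM at 24 h, against 12.4 and 13.3 CPM at 4 h. MCM4, another subunit of the MCM ring, had 145 and 159.5 CPM at 24 h, against 82 and 89.8 CPM at 4 h. The 24 h pairs of both genes lay above the 4 h pairs, and both stayed below the uHL-60 libraries. POLA1 rose by 0.97 ± 0.16 and MCM4 by 0.83 ± 0.16, with adjusted p of 0.000298 and 0.000989 by edgeR.

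After 24 h with LTA, mitotic genes and part of the S phase genes were higher than in untreated dHL-60 of the same time. At 1 µg/ml 31 of the 50 genes were called higher and 0 lower by edgeR, and at 10 µg/ml 32 higher and 0 lower. DESeq2 called 28 and 32 higher and 0 lower, and 0 genes were lower at an unadjusted p under 0.05. Of all 11866 genes tested, 13.9% were called higher and 7.26% lower at 1 µg/ml, and 23.6% higher and 19% lower at 10 µg/ml. The median log2 fold change was 0.64 over the 50 genes and 0.01 over all genes at 1 µg/ml, and 0.73 and -0.01 at 10 µg/ml. Both doses were compared with the same 2 untreated libraries. Both LTA libraries lay above both untreated ones for 42 of the 50 genes at 1 µg/ml and below them for 1, beside 33.1% and 30% of all genes, and for 40 and 3 at 10 µg/ml, beside 36.9% and 34.8%. By phase, 24 of 27 mitotic genes and 7 of 23 G1/S and replication genes were called higher at 1 µg/ml, and 23 of 27 and 9 of 23 at 10 µg/ml. At 1 µg/ml, 19 genes were called without the untreated library of replicate 2 and 18 without the LTA library of replicate 1. Without the 8 genes with shared exons, 26 and 27 of 42 were called higher.

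**Figure D3:**
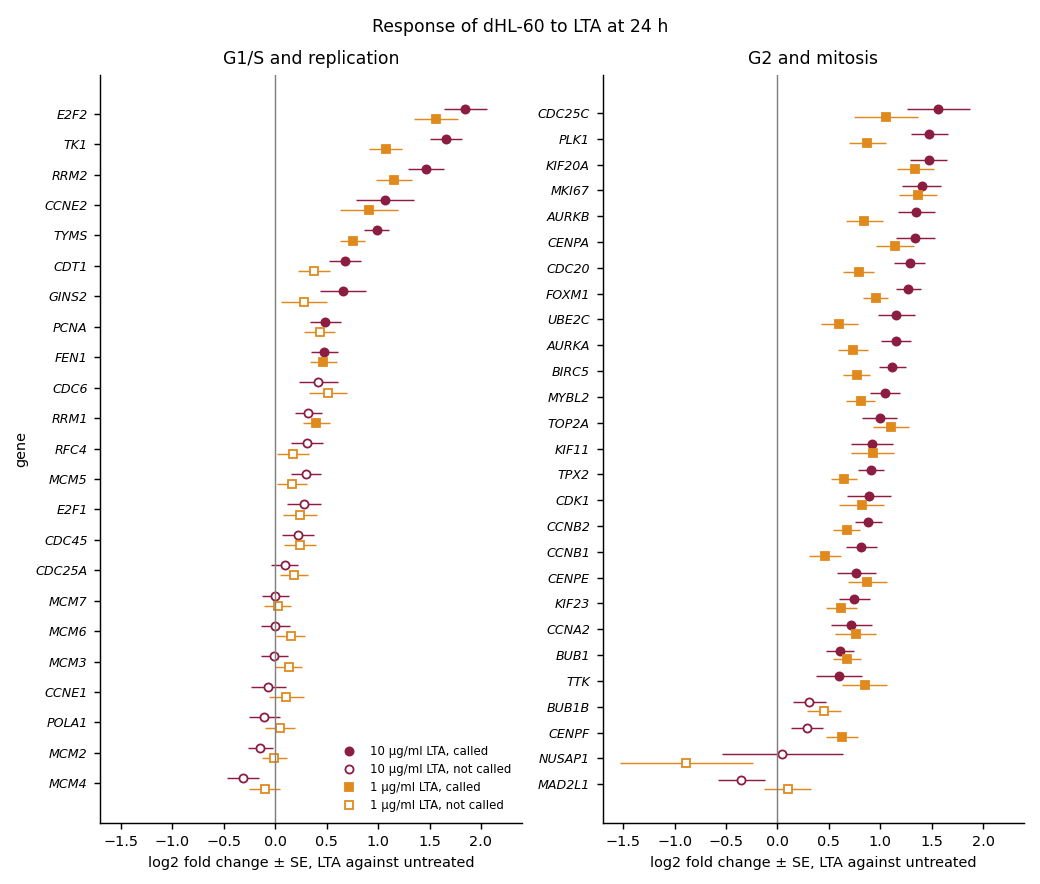
Log2 fold change ± SE of LTA against untreated dHL-60 at 24 h (x axis) for each of the 50 genes (y axis, by role) at 1 and 10 µg/ml, with filled points for an adjusted p under 0.05. Points are filled at 1 or both doses in the mitotic rows other than BUB1B, MAD2L1 and NUSAP1, in the nucleotide supply rows, and for CCNE2, E2F2, FEN1, PCNA, CDT1 and GINS2. E2F2 is highest, at 1.56 and 1.85, and no MCM row is filled.

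Of the 5 genes that open S phase, E2F2 and the cyclin CCNE2 rose at both doses. E2F2 had 24.8 and 18.6 CPM with 1 µg/ml and 30.3 and 22.7 CPM with 10 µg/ml LTA, against 7.3 and 7.35 CPM in untreated cells. All 4 LTA libraries lay above both untreated ones. It rose by 1.56 ± 0.21 and 1.85 ± 0.21, with adjusted p of 0.000147 and 1.37e-05 by edgeR. CCNE2 rose by 0.91 ± 0.28 and 1.07 ± 0.28. CCNE1 and CDC25A were not called, with log2 fold changes of 0.11 and 0.18 at 1 µg/ml and -0.07 and 0.09 at 10 µg/ml. E2F1 had log2 fold changes of 0.24 and 0.28, with adjusted p of 0.351 and 0.199 by edgeR.

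Nucleotide supply rose with them. RRM2 had 131 and 131 CPM with 1 µg/ml and 156 and 169.9 CPM with 10 µg/ml LTA, against 61.1 and 56.4 CPM in untreated cells. TK1 had 38.6 and 39.7 CPM with 1 µg/ml and 64.3 and 53.3 CPM with 10 µg/ml LTA, against 18.1 and 19.1 CPM in untreated cells. The LTA and untreated libraries of both genes did not overlap. RRM2 rose by 1.15 ± 0.18 and 1.47 ± 0.18, TK1 by 1.07 ± 0.16 and 1.66 ± 0.16, and the thymidylate synthase TYMS by 0.75 ± 0.12 and 0.99 ± 0.12, all at an adjusted p of at most 0.000587 by edgeR. RRM1, the large ribonucleotide reductase subunit, rose by 0.40 ± 0.13 at 1 µg/ml, and had 0.32 at 10 µg/ml with an adjusted p of 0.0643 by edgeR.

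Most licensing and helicase genes were not called. Of the 10 licensing and helicase genes 0 were called at 1 µg/ml by edgeR, where 2 had an unadjusted p under 0.05, and at 10 µg/ml the loading factor CDT1 and the GINS subunit GINS2 rose by 0.68 ± 0.16 and 0.66 ± 0.22. MCM6 had 97.1 and 100.3 CPM with 1 µg/ml and 90.9 and 87.3 CPM with 10 µg/ml LTA, against 92.7 and 85.1 CPM in untreated cells, and at 10 µg/ml the pairs overlap. MCM4 had 133 and 151 CPM with 1 µg/ml and 112 and 133 CPM with 10 µg/ml LTA, against 145 and 159.5 CPM in untreated cells. Its 10 µg/ml pair lay below the untreated pair, with a log2 fold change of -0.32 ± 0.15 and an adjusted p of 0.116 by edgeR. The log2 fold changes of the 6 MCM genes were between -0.10 and 0.16 at 1 µg/ml and between -0.32 and 0.30 at 10 µg/ml. At the fork FEN1 rose by 0.47 ± 0.13 and 0.48 ± 0.13, and PCNA rose by 0.49 ± 0.15 at 10 µg/ml. The call of PCNA was lost with upper-quartile scaling and without the untreated library of replicate 2 or either LTA library. CDC6 had log2 fold changes of 0.51 and 0.42, with adjusted p of 0.0648 and 0.0835 by edgeR, and the clamp loader subunit RFC4 0.17 and 0.31. POLA1, which had risen with time in untreated cells, had log2 fold changes of 0.05 and -0.11.

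All 5 mitotic CDK and cyclin genes rose at both doses. CDK1 had 48.7 and 45.8 CPM with 1 µg/ml and 46.5 and 52.8 CPM with 10 µg/ml LTA, against 31 and 22.3 CPM in untreated cells. It rose by 0.82 ± 0.22 and 0.89 ± 0.22, and the pairs did not overlap, but the untreated pair was wide. Without the untreated library of replicate 2 the log2 fold changes of CDK1 were 0.60 and 0.67. The phosphatase CDC25C rose by 1.06 ± 0.31 and 1.56 ± 0.31, on 1.56 and 1.41 CPM in untreated cells. The cyclins CCNA2, CCNB1 and CCNB2 rose by 0.76, 0.46 and 0.67 at 1 µg/ml and by 0.72, 0.81 and 0.88 at 10 µg/ml. The call of CCNB1 at 1 µg/ml, with an adjusted p of 0.0446 by edgeR, was lost under 8 of the 10 alternatives run for it.

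The 2 mitotic transcription factors rose as well. FOXM1 had 54.9 and 54.4 CPM with 1 µg/ml and 72.1 and 64.4 CPM with 10 µg/ml LTA, against 28 and 28.4 CPM in untreated cells. Its pairs were tight and separate, and it rose by 0.95 ± 0.12 and 1.27 ± 0.13, with adjusted p of 0.000113 and 3.63e-06 by edgeR. MYBL2 rose by 0.81 ± 0.14 and 1.05 ± 0.14.

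Kinases, checkpoint and spindle genes followed the same direction. PLK1, a kinase of mitotic entry and spindle assembly, had 56 and 52.4 CPM with 1 µg/ml and 92.4 and 71.9 CPM with 10 µg/ml LTA, against 23.9 and 35.4 CPM in untreated cells. It rose by 0.88 ± 0.18 and 1.47 ± 0.18. AURKA, which matures centrosomes, rose by 0.74 and 1.15, AURKB by 0.85 and 1.35, and the passenger protein survivin, BIRC5, by 0.77 and 1.12. Of the 6 checkpoint and anaphase-promoting complex (APC/C) genes, BUB1, TTK, the APC/C activator CDC20 and its ubiquitin-conjugating enzyme UBE2C rose at both doses. CDC20 had 86.9 and 78.7 CPM with 1 µg/ml and 129 and 104 CPM with 10 µg/ml LTA, against 44.5 and 51.1 CPM in untreated cells, and rose by 0.79 ± 0.15 and 1.29 ± 0.15. BUB1B and MAD2L1 were not called, with log2 fold changes of 0.45 and 0.10 at 1 µg/ml and 0.31 and -0.35 at 10 µg/ml.

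CENPA, the histone variant that marks the centromere, rose by 1.14 ± 0.19 and 1.34 ± 0.19, and the kinetochore motor CENPE by 0.87 ± 0.19 and 0.77 ± 0.19. CENPF, a kinetochore protein, rose by 0.63 ± 0.16 at 1 µg/ml and had 0.29 at 10 µg/ml, with an adjusted p of 0.151 by edgeR. KIF20A had 20.2 and 19.6 CPM with 1 µg/ml and 22.3 and 21.3 CPM with 10 µg/ml LTA, against 7.79 and 7.94 CPM in untreated cells. The LTA libraries lay far above the untreated ones, and it rose by 1.34 ± 0.18 and 1.47 ± 0.18. The motors KIF11 and KIF23 and the spindle factor TPX2 rose at both doses too, by 0.62 to 0.92 at 1 µg/ml and by 0.74 to 0.92 at 10 µg/ml. MKI67 had 296 and 209 CPM with 1 µg/ml and 286 and 232 CPM with 10 µg/ml LTA, against 85 and 111 CPM in untreated cells. It rose by 1.37 ± 0.19 and 1.40 ± 0.19, and TOP2A by 1.11 ± 0.17 and 0.99 ± 0.17.

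**Figure D4:**
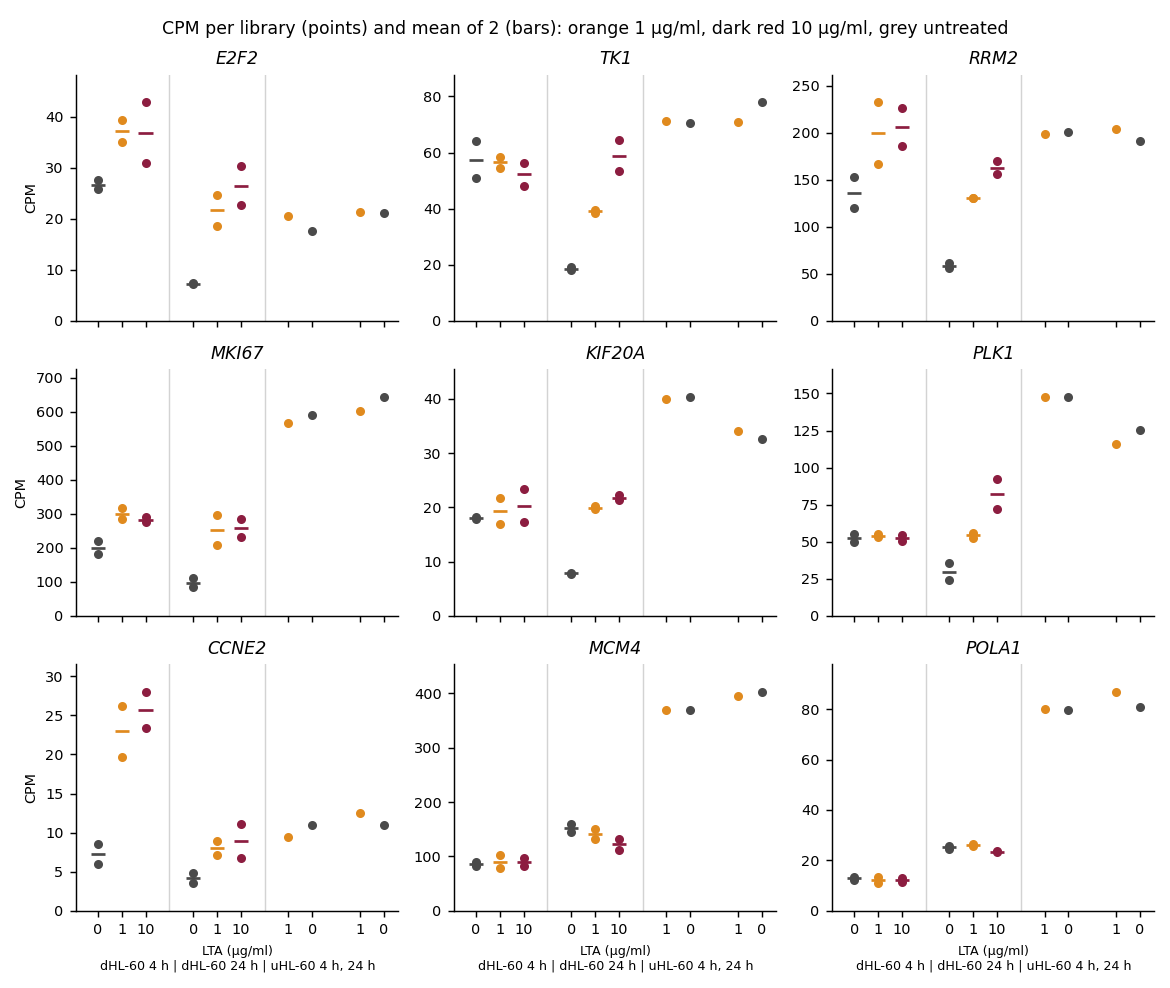
CPM in every library (points) by group (x axis) for 9 genes, 1 panel each, with the y axis starting at 0. E2F2, TK1, RRM2, MKI67, KIF20A and PLK1 are lowest in untreated dHL-60 at 24 h, CCNE2 is highest with LTA at 4 h, and the LTA and untreated groups of MCM4 and POLA1 lie close together within each time.

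Read by promoter motif, 18 of the 41 genes with a promoter entry hold a CHR and no E2F site, and 12 hold an E2F site and no CHR. At 24 h with 1 µg/ml LTA, 15 of the 18 and 2 of the 12 were called higher, and with 10 µg/ml 13 of the 18 and 5 of the 12, beside 13.9% and 23.6% of all genes. The median log2 fold changes were 0.80 and 0.26 at 1 µg/ml and 0.89 and 0.35 at 10 µg/ml. Of the 9 genes with neither motif 6 were called higher at each dose. In dHL-60 against uHL-60 both motif groups were lower, with 18 of 18 and 11 of 12 called and medians of -1.87 and -1.62. The motif groups largely follow the phases, and the 2 cannot be told apart here.

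The summed level of the 26 mitotic genes without NUSAP1 was 1396 to 1578 CPM with 1 µg/ml and 1565 to 1649 CPM with 10 µg/ml LTA at 24 h, against 805 to 840.6 CPM in untreated cells. In untreated dHL-60 at 4 h it was 1053 to 1165 CPM, and in the uHL-60 libraries 3921 to 4154 CPM. Set beside the untreated libraries of 4 h, the mean with LTA at 24 h was higher for 42 of the 49 genes at 1 µg/ml and for 46 of 49 at 10 µg/ml, a description that was not tested. E2F2 was the 1 gene whose mean at 24 h with LTA also exceeded untreated uHL-60, at both doses.

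The other genes of the same pathways were counted from separate lists, beside which 13.9% of all genes rose and 7.26% fell at 1 µg/ml, and 23.6% rose and 19% fell at 10 µg/ml. Of 56 further mitosis genes tested, 38 rose and 0 fell at 1 µg/ml and 44 rose and 0 fell at 10 µg/ml after 24 h, with medians of 0.76 and 0.92. Of 60 further replication and repair genes, 11 rose and 1 fell at 1 µg/ml and 12 rose and 2 fell at 10 µg/ml, with medians of 0.27 and 0.19, so their share called higher was near that of all genes. Over time without LTA 25 of the 56 mitosis genes fell and 1 rose, beside 23.1% and 17.8% of all genes. In dHL-60 against uHL-60 52 of the 56 and 59 of the 60 fell, beside 28.3% of all genes. Of 26 genes that restrain proliferation, 8 rose and 0 fell at 1 µg/ml and 10 rose and 3 fell at 10 µg/ml. CDKN1A, the CDK inhibitor p21, had 43.9 and 36.7 CPM with 1 µg/ml and 110.2 and 90.1 CPM with 10 µg/ml LTA, against 2.74 and 2.75 CPM in untreated cells at 24 h. It rose by 3.87 ± 0.19 and 5.18 ± 0.20, in the same libraries in which the mitotic genes rose. In untreated cells CDKN1A had 36.9 and 28.5 CPM at 4 h, with a log2 fold change of -3.56 ± 0.20 from 4 to 24 h. With LTA at 4 h it had 198 and 203 CPM at 1 µg/ml and 241 and 240 CPM at 10 µg/ml. The inhibitor p27, CDKN1B, had log2 fold changes of 0.22 and -0.08 with LTA at 24 h and was not called.

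Maturation genes moved in the same libraries. Of 25 mature neutrophil and phagocyte genes, 17 rose and 2 fell at 1 µg/ml and 19 rose and 1 fell at 10 µg/ml after 24 h. Of all genes, 13.9% rose and 7.26% fell at 1 µg/ml, and 23.6% rose and 19% fell at 10 µg/ml. The summed level of the mature genes was 14623 to 14751 CPM with 1 µg/ml and 22535 to 24216 CPM with 10 µg/ml, against 8231 to 9199.8 CPM in untreated cells. Of 19 promyelocyte genes tested, 14 fell at 1 µg/ml and 15 at 10 µg/ml, and 0 rose at either dose by edgeR, with a summed level of 12400 to 16741 CPM and 9971 to 12123 CPM, against 27671 to 32391 CPM in untreated cells. The 13 macrophage markers summed to 118 to 136 CPM and 147 to 171 CPM, against 31.3 to 32.1 CPM in untreated cells. In untreated dHL-60 at 4 h the mature genes summed to 12805 to 15919 CPM and the promyelocyte genes to 14334.5 to 17942 CPM. The macrophage markers summed to 69.5 to 98.4 CPM in those libraries. The phagocyte receptor FPR1 had 225 and 199.5 CPM and 491 and 403 CPM at the 2 doses, against 32.4 and 30.2 CPM in untreated cells. CD14 had 570 and 621 CPM and 1389 and 1245 CPM, against 146 and 137 CPM in untreated cells. At 4 h without LTA FPR1 had 148 and 98.9 CPM and CD14 583 and 439 CPM. The summed level of 16 reference genes moved too, with 52500 to 55100.4 CPM at 1 µg/ml and 66303 to 68195 CPM at 10 µg/ml, against 46675 to 48717 CPM in untreated cells. Of them 2 rose and 1 fell at 1 µg/ml and 5 rose and 0 fell at 10 µg/ml, with medians of -0.06 and -0.0034. The part of these shifts in the cell cycle result was not tested.

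At 4 h few of the genes differed, and the share was below that of all genes. With 1 µg/ml LTA 6 of the 50 genes were called higher and 0 lower, and with 10 µg/ml 9 higher and 0 lower, by edgeR and by DESeq2 alike. At an unadjusted p under 0.05, 10 and 15 genes were higher and 0 lower. Of all genes tested, 18.7% were called higher and 20.1% lower at 1 µg/ml, and 20% higher and 21.3% lower at 10 µg/ml. The median log2 fold changes were 0.17 and 0.25 over the 50 genes and -0.04 over all genes at both doses. Both LTA libraries lay above both untreated ones for 21 genes and below them for 2 at 1 µg/ml, beside 31.4% and 35.4% of all genes, and for 28 and 2 at 10 µg/ml, beside 33.9% and 36.6%. CCNE2, the E-type cyclin that activates CDK2 for S phase entry, had 19.7 and 26.2 CPM with 1 µg/ml and 28 and 23.3 CPM with 10 µg/ml LTA, against 5.99 and 8.59 CPM in untreated cells. The LTA libraries were above the untreated dHL-60 libraries and above all 4 uHL-60 libraries, which held 9.38 to 12.6 CPM. It rose by 1.65 ± 0.27 and 1.81 ± 0.27, with adjusted p of 0.00027 and 0.000119 by edgeR, and was called under every alternative run for it at 4 h. At 24 h its LTA libraries held 7.19 and 8.87 CPM at 1 µg/ml and 6.76 and 11.1 CPM at 10 µg/ml.

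The other genes called at 4 h at both doses were CDK1, CENPE, MKI67, RRM2 and TPX2. CDK1 had 37.8 and 59.3 CPM with 1 µg/ml and 54.5 and 55 CPM with 10 µg/ml LTA, against 24.8 and 34.5 CPM in untreated cells. The pairs did not overlap, but the 1 µg/ml pair was wide. CDK1 rose by 0.72 ± 0.22 and 0.88 ± 0.22, with adjusted p of 0.0192 and 0.00567 by edgeR. CENPE rose by 0.68 and 0.64, MKI67 by 0.58 and 0.49, RRM2 by 0.55 and 0.60, and TPX2 by 0.52 and 0.41. At 10 µg/ml BUB1B, FEN1 and FOXM1 rose too, by 0.51, 0.42 and 0.36. The call of FOXM1 was lost under 7 of the 10 alternatives run for it. These counts rest on single libraries: at 1 µg/ml 2 genes were called without the untreated library of replicate 1 and 3 without the LTA library of replicate 2, of which GINS2 was lower, and at 10 µg/ml 4 and 2 were called without the same replicates. With upper-quartile scaling the median of all genes was -0.16 at 1 µg/ml and -0.17 at 10 µg/ml, and that of the 50 genes 0.06 and 0.11. At 10 µg/ml that scaling called 2 of the 50 genes higher and CDT1 lower.

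Of the 5 genes that open S phase CCNE2 was the 1 called at 4 h, at both doses, by edgeR. Outside the 50 genes, the cyclin D1 gene CCND1 had 126 and 128 CPM with 1 µg/ml and 113 and 111 CPM with 10 µg/ml LTA, against 17.5 and 17.2 CPM in untreated cells. It rose by 2.87 ± 0.15 and 2.69 ± 0.15 at 4 h, and fell by 0.62 ± 0.15 and 1.00 ± 0.15 at 24 h. CDKN1A rose by 2.62 ± 0.16 and 2.88 ± 0.16 at 4 h.

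The response at 24 h exceeded that at 4 h for part of the set. The difference of the responses, 24 h minus 4 h, was tested as an interaction, in which a rise with LTA at 24 h and a fall of the untreated cells between the times weigh alike. At 1 µg/ml 13 of the 50 genes had a higher response at 24 h and 0 a lower one, and at 10 µg/ml 20 higher and 0 lower, by edgeR. DESeq2 gave 9 and 19 higher and 0 lower, and 0 genes were lower at an unadjusted p under 0.05. Of all genes, 13.3% had a higher response at 24 h and 7.41% a lower one at 1 µg/ml, and 19.7% and 14% at 10 µg/ml. The median difference was 0.37 and 0.49 over the 50 genes and 0.04 over all genes at both doses. The largest differences were those of KIF20A at 1 µg/ml, 1.23 ± 0.25, and TK1 at 10 µg/ml, 1.79 ± 0.22, with adjusted p of 0.00389 and 5.59e-05 by edgeR. TK1 had 54.6 and 58.5 CPM with 1 µg/ml and 48 and 56.4 CPM with 10 µg/ml LTA at 4 h, against 64.2 and 50.8 CPM in untreated cells, so the groups overlapped there and parted at 24 h. PLK1 and AURKB differed by 1.47 ± 0.25 and 1.45 ± 0.25 at 10 µg/ml, BIRC5 by 1.25 ± 0.19 and CDC20 by 1.25 ± 0.22. The number at 1 µg/ml was 8 without the untreated library of replicate 1 at 4 h and 4 without that of 24 h, 5 without the LTA library of replicate 1 at 4 h or at 24 h, and 7 without the LTA library of replicate 2 at 24 h.

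**Figure D5:**
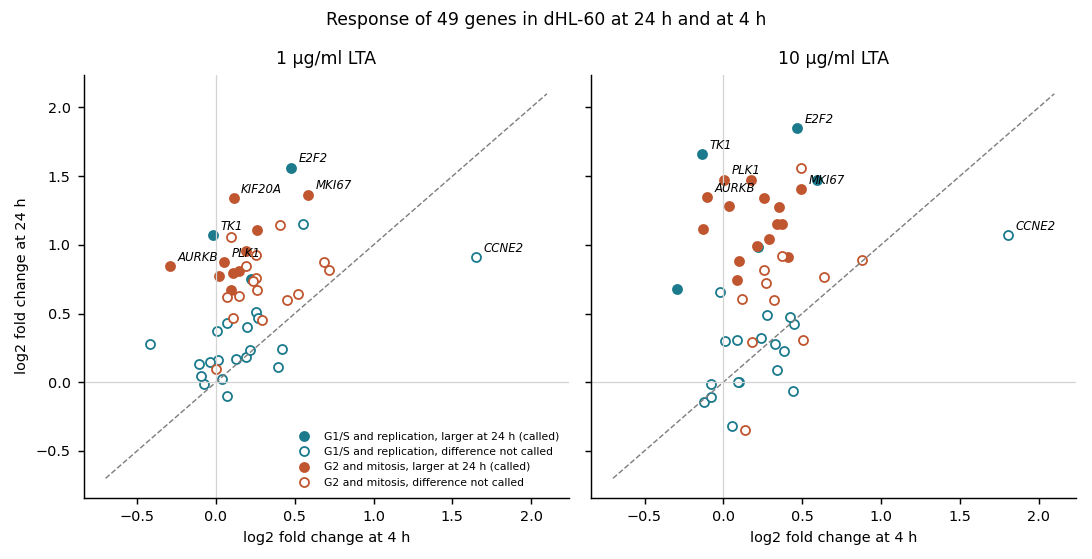
Log2 fold change with LTA at 24 h (y axis) against that at 4 h (x axis) for 49 genes, at 1 and 10 µg/ml, with filled points where the difference between the times was called. The filled points are 13 genes at 1 µg/ml and 20 at 10 µg/ml, with E2F2 highest, and CCNE2 lies furthest right, at 1.65 and 1.81.

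Few differences between the doses were called. At 4 h, 0 of the 50 genes differed between 10 and 1 µg/ml by edgeR, 0 had an unadjusted p under 0.05, and DESeq2 called 0, beside 0.00843% of all genes called by edgeR. The intervals of the log2 differences reached from -0.64 to 1.02 over the 49 genes without NUSAP1. At 24 h TK1 was called, with 64.3 and 53.3 CPM at 10 µg/ml, against 38.6 and 39.7 CPM at 1 µg/ml. It rose by 0.59 ± 0.15, with an adjusted p of 0.0482 by edgeR, and 0 genes were called without either 1 µg/ml library or without the 10 µg/ml library of replicate 1, against 4 without that of replicate 2. Of all genes 3.03% were called higher and 0.792% lower at 10 µg/ml. At an unadjusted p under 0.05 by edgeR, 9 of the 50 genes were higher at 10 µg/ml and 1, CENPF, was lower. For PLK1 both 10 µg/ml libraries lay above both at 1 µg/ml, with a log2 fold change of 0.60 ± 0.18 and an adjusted p of 0.0766 by edgeR. For the 48 genes not called the intervals reached from -0.94 to 1.11.

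In uHL-60 no such change was found. With 1 µg/ml LTA, 0 of the 50 genes were called over both times by edgeR, 0 had an unadjusted p under 0.05, and DESeq2 called 0, beside 0.209% of 11020 genes called by edgeR. That fit has 1 residual degree of freedom, and the intervals of the log2 fold changes lay between -0.28 and 0.35 for the 49 genes without NUSAP1. The ratio of the single libraries, LTA over untreated, was between 0.851 for CCNE2 and 1.16 for E2F2 at 4 h, and between 0.875 for MYBL2 and 1.15 for CCNE2 at 24 h. No member passed 1.5-fold in either direction, beside 0.101% and 0.358% of genes. MKI67 had 566 CPM with LTA, against 589 CPM without it at 4 h, and 602 CPM with LTA, against 643 CPM without it at 24 h.

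The responses of the 2 cell states to 1 µg/ml were set against each other as an interaction over 16 libraries, with each lone uHL-60 library assumed to vary like the dHL-60 replicates. At 4 h CCNE2 was the 1 gene that differed, by 1.88 ± 0.44 (dHL-60 minus uHL-60), with an adjusted p of 0.015 by edgeR, beside 5.43% of 12603 genes with a higher and 4.91% with a lower response in dHL-60. At 24 h 5 genes had a higher response in dHL-60 and 0 a lower one, beside 1.35% and 0.278% of genes. These were E2F2 by 1.53 ± 0.35, MKI67 by 1.44 ± 0.32, KIF20A by 1.26 ± 0.29, TK1 by 1.20 ± 0.26 and FOXM1 by 1.02 ± 0.21, with adjusted p of 0.0301 to 0.0467 by edgeR. The median difference at 24 h was 0.60 over the 50 genes and 0.01 over all genes. CCNE2, the gene of the 4 h difference, is 1 of the 8 genes with shared exons. The number at 24 h was 0 without the replicate 1 library of untreated dHL-60 or of dHL-60 with LTA, and 2 without either replicate 2 library. At 4 h 2 genes were called without the untreated library of replicate 2 or the LTA library of replicate 1.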

How the data were processed

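The labels give a stranded mRNA kit and total RNA as input. The authors deposited 1 table of raw counts of reads per gene and library. As tools, the submitters' processing notes list edgeR 3.36.0, DESeq2 1.28.0, featureCounts 2.0.1 (Subread), HISAT2 2.1.0 and fastp 0.20.0, with the build GRCh38. How featureCounts treated strand is not given in the sources used, so reads of overlapping genes cannot be assigned with certainty. The uHL-60 columns follow a plain character order of symbols, and realigning them moved 1343 of 23575 symbols and 0 of the 50 genes. Over the moved symbols the correlation across genes with dHL-60 was 0.248 to 0.253 as deposited and 0.889 to 0.895 realigned.

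Counts were tested as deposited with edgeR 4.0.16 in R 4.3.3 (quasi-likelihood F test, two-sided, TMM scaling, filterByExpr, Benjamini-Hochberg adjusted p under 0.05 over all genes tested) on the whole table, after the method was tested on simulated data. Comparisons within dHL-60 were contrasts over its 12 libraries, and dHL-60 was compared with uHL-60 over 6 untreated libraries. CPM are counts scaled to the library total and its TMM factor, and intervals are at the 95% level. Intervals on ratios of single libraries cover counting error only. Library totals were 9653374 to 20157081 counts, which limits the precision of genes with low counts. DESeq2 1.42.0, other scalings, no filter, replicate numbers as a block and leaving out libraries were the alternatives. The 50 genes and the other lists were chosen with earlier results of these data known. Any of the 50 genes may be named. MKI67, TOP2A, CDK1, CCNB1, CDC20, PLK1, BIRC5, FOXM1, CCNE1, E2F1, CDC6, MCM2, MCM5, PCNA, RRM2 and TYMS were followed, with the 3 called genes of largest change in each direction. CCND1, CDKN1A and CDKN1B, the genes given by library beyond these and the promoters of responders were chosen after their values were seen.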

Additional observations from a re-analysis of the deposited data

Results flagged for a closer look

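The response of dHL-60 to LTA differed between the times by a test of the difference itself, the interaction in edgeR's quasi-likelihood fit with adjusted p under 0.05 over all genes. At 1 µg/ml 13 genes had a higher response at 24 h than at 4 h, with KIF20A at 1.23, AURKB at 1.14 and TK1 at 1.09 on the log2 scale. At 10 µg/ml 20 genes did, with TK1 at 1.79, PLK1 at 1.47 and AURKB at 1.45.

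The response to 1 µg/ml also differed between the cell states, dHL-60 minus uHL-60, by the same kind of test. At 4 h 1 gene differed, CCNE2 by 1.88. At 24 h 5 genes differed, led by E2F2 at 1.53, MKI67 at 1.44 and KIF20A at 1.26. The number was 0 without the replicate 1 library of untreated dHL-60 or of dHL-60 with LTA. The uHL-60 side of these differences rests on 1 library per group, and CCNE2 is among the genes with shared exons.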

How the results depend on the processing

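Of 132 alternative counts of called genes, 100 were within 1.5 times the reported count, and 0 called genes changed sign under any alternative. Over 93 named values, 890 of 1008 alternative values kept their direction and side of the threshold, 118 lost significance and 0 reversed. Called genes numbered 47 to 50 in dHL-60 against uHL-60 under every alternative run.

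With DESeq2 size factors the 24 h minus 4 h difference at 1 µg/ml was called for 8 genes. With upper-quartile scaling 10 µg/ml LTA at 4 h gave 3 genes (2 higher, and CDT1 lower), 10 against 1 µg/ml at 24 h gave 0 and the dHL-60 minus uHL-60 difference at 24 h gave 3. No filter on low counts gave 4 for 10 against 1 µg/ml at 24 h, and 2 and 11 for dHL-60 minus uHL-60 at 4 and 24 h. The DESeq2 Wald test gave 3 for 10 against 1 µg/ml at 24 h and 9 for dHL-60 minus uHL-60 at 24 h, and only the 2 groups compared gave 2 for 10 against 1 µg/ml at 24 h. The cause of these shifts was not tested.

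Leaving out each library in turn gave 2 to 6 called genes for 1 µg/ml and 2 to 7 for 10 µg/ml at 4 h, 18 to 24 for 1 µg/ml at 24 h, 0 to 4 for 10 against 1 µg/ml at 24 h, and 15 to 19 for untreated 24 h against 4 h. It gave 4 to 11 for the 24 h minus 4 h difference at 1 µg/ml, and 1 to 2 and 0 to 2 for dHL-60 minus uHL-60 at 4 and 24 h. The lone library left in a group was then assumed to vary like the other groups. Leaving out a library was not run for LTA in uHL-60, where no residual degree of freedom would remain.

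Upper-quartile scaling changed the split of all genes, higher and lower. For 1 µg/ml at 4 h it was 1805 and 3077 in place of 2214 and 2380, for 10 µg/ml at 4 h 1868 and 3263 in place of 2379 and 2524, and for 1 µg/ml at 24 h 1441 and 1179 in place of 1651 and 862. For dHL-60 minus uHL-60 at 4 h it was 577 and 799 in place of 684 and 619.

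Replicate numbers did not pair the samples throughout. Over 15 pairs of groups, deviations of same-numbered libraries correlated between -0.366 and 0.498, and 7 exceeded 0.1. Among the 4 h dHL-60 groups the values were 0.498, 0.119 and 0.225, and among those of 24 h 0.0279, -0.366 and 0.0941. With the replicate block 6, 10, 33 and 34 genes were called for 1 and 10 µg/ml at 4 h and 1 and 10 µg/ml at 24 h, the last with MCM4 lower, and 24 for untreated time. Depth limits genes of low counts such as CDC25C and CCNE2.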
